A study of Mus musculus with 16 samples.

Results

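The genes described here code for proteins of the synaptic vesicle and of the machinery that fuses it with the presynaptic membrane. They were taken by gene symbol from a fixed list of 44 names, and all 44 were found among the 21878 mRNAs of the count and FPKM tables. RNA-seq was performed on 16 libraries, 8 from mice with experimental autoimmune encephalomyelitis (EAE) and 8 from PBS-treated mice, named here EAE 1 to EAE 8 and PBS 1 to PBS 8. All mice were wild-type (WT in the labels) female C57BL/6 animals that were 8 weeks old, and brains were taken 14 days after induction, at the peak of disease. EAE mice were immunized with a peptide of myelin oligodendrocyte glycoprotein (MOG) that starts at residue 35, in complete Freund's adjuvant, and received pertussis toxin in repeated doses of 200 ng. The methods end the peptide at residue 55, whereas in the treatment field of the labels its last residue is 55 for EAE 1 and increases with each mouse up to 62 for EAE 8. The control mice were injected with PBS, and the labels repeat the EAE protocol for them. EAE is an induced model of autoimmune demyelination, and no transgene, Cre line or pooling of animals is given in the sources used here. The samples are labelled as brain microglia sorted as CD11b+/CD45int cells, and the question of the comparison is which mRNAs differ between EAE mice and PBS-treated mice.

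Neurotransmitter is loaded into synaptic vesicles by transporters in the vesicle membrane, and the vesicles are tethered and primed at the active zone, a protein scaffold on the presynaptic membrane. When calcium enters the terminal, synaptotagmins act as the calcium sensors, and SNARE proteins on the vesicle and on the plasma membrane zip together and fuse both membranes. Endocytosis then retrieves the vesicle proteins for another round. In the brain most of these genes are transcribed mainly by neurons, while microglia and other immune cells secrete largely with related but different SNARE proteins and Munc13 isoforms.

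The level of these genes went against the cell type in the labels. The mean FPKM of the 44 genes over all libraries was 4.37 to 306, with a median of 57.7, and 15 of the 44 were among the 500 mRNAs with the highest mean FPKM (2.29% of all). Each of them was detected in each library, with 262 to 48598 counts. By contrast, the highest of 19 microglia marker genes, the complement gene C1qb, had an FPKM of 66.1 ± 12.7 (SD, n = 8) in EAE mice against 59.1 ± 7.82 in PBS-treated mice, and 19 of the 44 genes had a higher mean than this. All 19 microglia markers were detected in all libraries, and their summed FPKM had a median of 349 in EAE mice, with up to 399.6, and of 268 in PBS-treated mice, with up to 369.7. The summed FPKM of 18 neuron marker genes, none of them among the 44, was 1946 to 2186 in EAE mice and 2105.5 to 2368 in PBS-treated mice. In bulk libraries such as these, fewer cells of a type and less RNA per cell cannot be told apart.

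**Figure D1:**
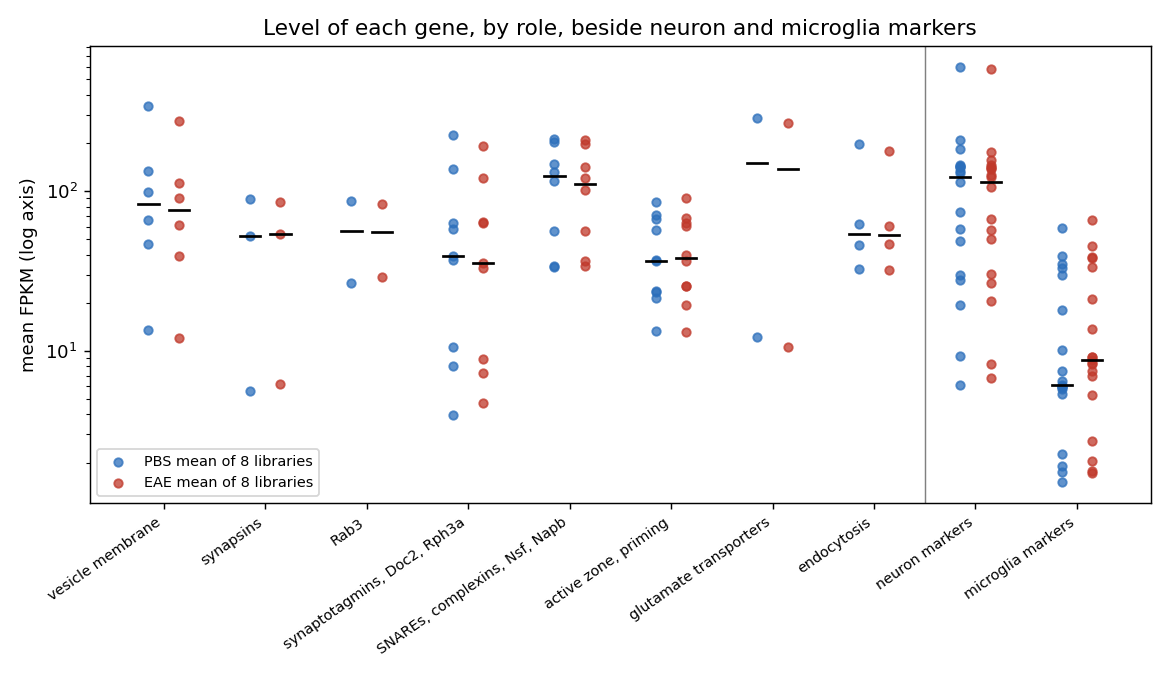
Mean FPKM of each gene in PBS-treated mice (blue) and EAE mice (red) on a log axis, with the 44 genes grouped into 8 roles and the 18 neuron and 19 microglia markers on the right. Points are means of 8 libraries and black bars are medians over the genes of a group; Syp and Slc17a7 lie highest among the 44 genes, and 19 of the 44 lie above C1qb, the highest microglia marker.

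Total counts ranged from 24587443 to 30244215 in the EAE group, and from 26031889 to 34184576 in the PBS group. The TMM factors, which edgeR uses to correct for the composition of a library, did not overlap between the groups, at 1.00 to 1.03 in EAE mice and 0.960 to 0.997 in PBS-treated mice. FPKM was scaled by library total only, so that FPKM differences lie slightly above the fitted log2FC. No 2 libraries agreed within sampling noise. EAE 6, 7 and 8 were more alike than the other pairs of their group, and so were PBS 5, 7 and 8. Their squared difference within a group was 3.10 to 4.02 times that of counting noise. For the other pairs within a group it was 6.05 to 24.6 times. Between EAE 6, 7 and 8 and PBS 5, 7 and 8 it was 6.68 to 12.1 times. EAE 4 was closest to PBS 4, at 5.38 times. EAE 4 differed from the other EAE libraries by 13.1 to 24.6 times and from the other PBS libraries by 11.3 to 22.2 times. The labels name no batch. The number of mRNAs detected was 17565 to 17644 in EAE 1 to 4 and 17955 to 18042 in EAE 5 to 8. It was 17405 to 17609 in PBS 1 to 4 and 17831 to 17922 in PBS 5 to 8. No fit used this split by number alone, and its part in the results was not tested. EAE 5 was the lowest of all 16 libraries for 24 of the 44 genes, and PBS 2 was the highest for 12. The share of all mRNAs for which this was so is not given here, so that these counts stand without a background. EAE 5 also had the lowest summed FPKM of neuron markers, 1946. Its sums of astrocyte and oligodendrocyte markers, 1946 and 1335, were the highest of all libraries.

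Genes of vesicle membrane proteins and of synaptotagmins and other C2 domain proteins made up 8 of the 9 genes that were lower in EAE mice, and genes of the active zone scaffold made up 0 in edgeR (1 was lower at an unadjusted p under 0.05, and 1 with DESeq2). Whether the roles differ was not tested. In edgeR's quasi-likelihood test on the raw counts, 9 of the 44 genes had a Benjamini-Hochberg adjusted p under 0.05, all of them lower in EAE mice, against a background of 1.76% of the 17885 mRNAs tested that were lower and 0.66% that were higher. Of the mRNAs at or above the level of the lowest of the 44 genes, a background chosen after the values were seen, 3.07% were lower. The 9 genes were Syp, Sv2a, Sv2c, Syt1, Syt2, Syt5, Syt11, Doc2b and Cplx1. The changes were small, with a log2FC of −0.36 to −0.19, and 0 of the 44 passed the |log2FC| over 1 that the study used together with this adjusted p (background 0.0224% lower and 0.0951% higher), in edgeR as well as in DESeq2. No gene of the 44 was higher at an adjusted p under 0.05 in edgeR, DESeq2 or limma-voom with all libraries, and 0 were higher at an unadjusted p under 0.05 in edgeR, at which 19 were lower (background 9.52% lower and 7.92% higher). The median log2FC of the 44 genes was −0.10, beside 0.01 over all mRNAs tested, and 34 of the 44 had a negative log2FC. For 0 of the 44 did every EAE library lie below every PBS library (background 0.101%) or above it (background 0.162%).

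**Figure D2:**
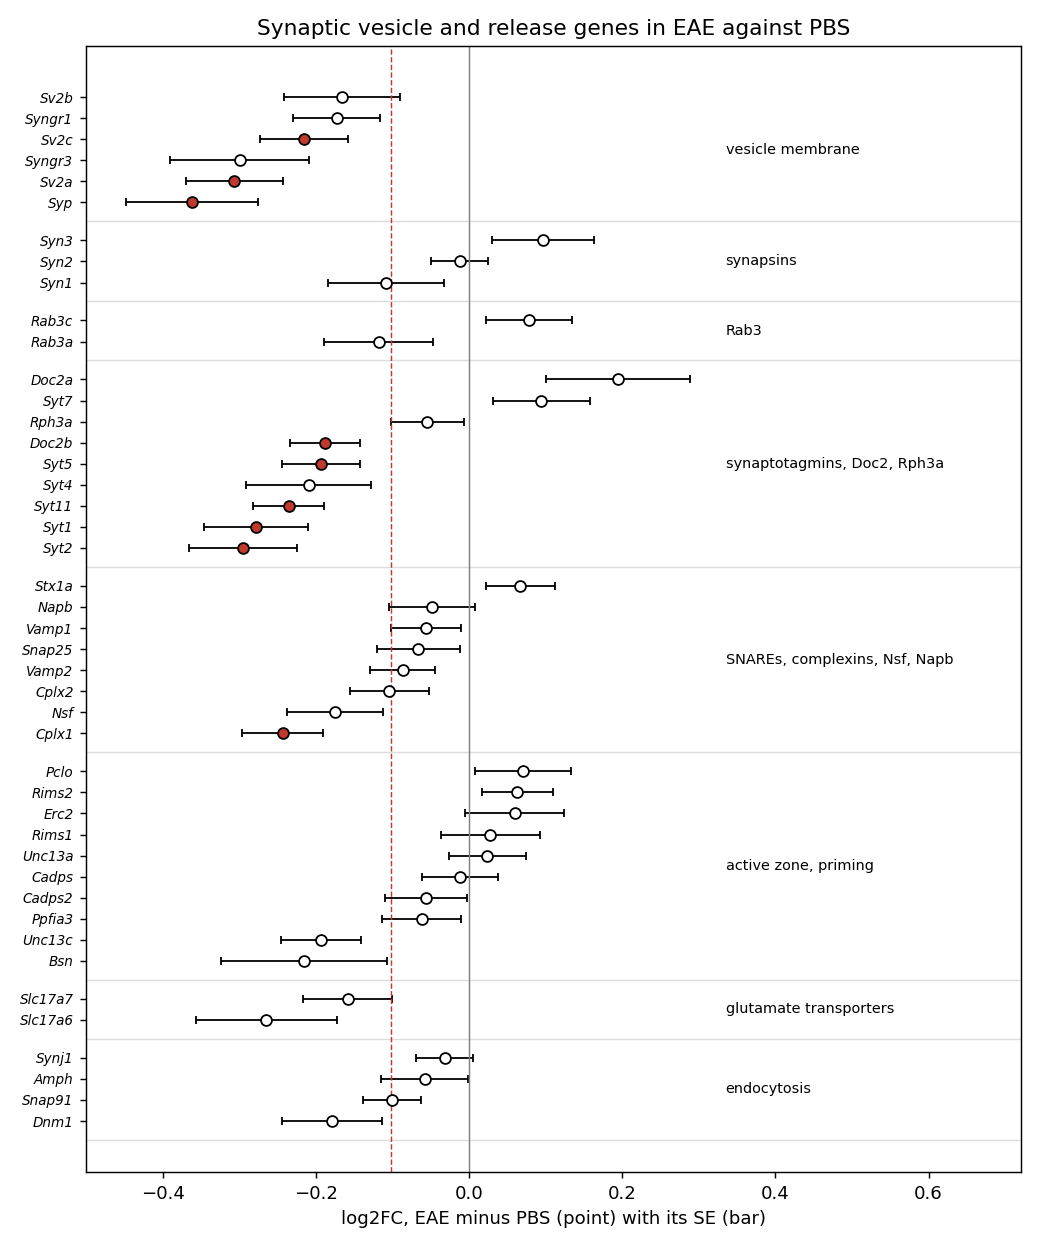
log2FC of EAE mice against PBS-treated mice for each of the 44 genes from edgeR, with its SE as a bar, ordered by role; filled points have an adjusted p under 0.05 and the dashed line is the median of the 44, −0.10. All 6 vesicle membrane genes lie left of 0, while the 10 active zone genes lie on both sides of it.

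All 6 genes of integral vesicle membrane proteins had a negative log2FC, with a median of −0.26, and 3 of the 6 had an adjusted p under 0.05 in edgeR. Syp, or synaptophysin (chrX:7638580-7653256 on GRCm38), is the most abundant of the small tetraspan proteins of the vesicle and had the highest mean FPKM of the 44 genes, at rank 37 of all mRNAs. Its FPKM was 183, 276 and 319.9 as the lowest, median and highest value in EAE mice and 305, 345 and 379 in PBS-treated mice. In 6 of the 8 EAE libraries it lay below every PBS library, EAE 5 stood lowest, and EAE 4 and EAE 7 reached into the PBS range. The log2FC of Syp was −0.36 (SE 0.09, adjusted p = 0.0293 in edgeR), so that its level fell by 22.2%. The exact permutation test on FPKM gave an unadjusted p of 0.00171 (two-sided, n = 8 per group).

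Sv2a, Sv2b and Sv2c code for the SV2 glycoproteins, transporter-like proteins of the vesicle membrane, and SV2A is the binding site of the antiseizure drug levetiracetam. The FPKM of Sv2a (chr3:96181227-96195183) was 93.7 to 122 with a median of 115 in EAE mice and 118 to 152 with a median of 135 in PBS-treated mice. The groups overlapped in a few libraries, since 6 EAE libraries lay below every PBS library and 6 PBS libraries lay above every EAE library. Its log2FC was −0.31 (SE 0.06, adjusted p = 0.0148 in edgeR). Sv2c (chr13:95959443-96132577), which is found mainly in the basal ganglia and brainstem, was present at a low level. Its FPKM was 10.2 to 13.96 in EAE mice and 12.1 to 15.3 in PBS-treated mice, with 5 EAE libraries below the PBS range and EAE 4 above the PBS median. Its adjusted p of 0.0497 in edgeR lay just inside the threshold, at a log2FC of −0.22. The remaining genes, the synaptogyrins Syngr1 and Syngr3 and the broadly expressed Sv2b, had a log2FC of −0.17 to −0.30 and did not pass in edgeR, although Syngr3 did with DESeq2.

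Promoter sequences from RefSeq (GRCm38.p6) were used for 34 of the 44 genes, with 45 promoters in all, each covering 250 bases before and 50 after a start site. The median GC content of these was 61.3%, beside 52.7% over all 32851 promoters. The GC box GGGGCGGGG, the binding motif of the Sp1 family, stood in 12 of the 45 promoters (26.7%) when searched on both strands, and in 11.4% of all promoters. The letters TTCAGCACC, the left arm of the motif bound by REST, a repressor of neuronal genes outside neurons, stood in 3 of the 45 (6.67%), those of Syn1, Ppfia3 and Unc13a, and in 0.371% of all. The cAMP response element TGACGTCA stood in 1 promoter, that of Syn1, and TATAAA in 2, both of Sv2b, beside 1.79% and 13.6% of all promoters. The 250 bases before the start site are shown 5′ to 3′ for the 2 vesicle membrane genes with the largest fall among those called, with the GC box in capitals, and for Syn1 with the REST arm in capitals. They stand at chrX:7638330-7638579 on the plus strand (Syp), chr3:96180977-96181226 on the plus strand (Sv2a) and chrX:20920919-20921168 on the minus strand (Syn1). The GC box starts at −50 in Syp and at −156, on the opposite strand, in Sv2a, and the REST arm starts at −232 in Syn1.
Syp: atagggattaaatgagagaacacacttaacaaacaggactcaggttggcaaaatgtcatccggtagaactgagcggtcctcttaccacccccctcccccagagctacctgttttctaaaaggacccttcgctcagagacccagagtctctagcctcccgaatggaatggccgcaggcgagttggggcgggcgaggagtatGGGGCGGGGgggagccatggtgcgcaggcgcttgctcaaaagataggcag
Sv2a: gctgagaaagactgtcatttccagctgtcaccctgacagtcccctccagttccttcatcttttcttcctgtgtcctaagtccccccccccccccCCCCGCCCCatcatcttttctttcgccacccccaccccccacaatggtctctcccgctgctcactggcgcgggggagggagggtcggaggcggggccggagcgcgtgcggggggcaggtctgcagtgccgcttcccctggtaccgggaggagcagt
Syn1: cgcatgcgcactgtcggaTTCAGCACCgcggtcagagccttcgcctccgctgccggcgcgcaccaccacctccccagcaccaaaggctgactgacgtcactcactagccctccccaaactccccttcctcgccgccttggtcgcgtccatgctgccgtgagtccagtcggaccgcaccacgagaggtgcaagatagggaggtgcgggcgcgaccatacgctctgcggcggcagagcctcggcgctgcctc
The GC box also stood in the promoters of Slc17a7, Rab3a and Rims1, genes that did not pass the test.

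The synapsins and Rab3 proteins are bound to the cytoplasmic face of the vesicle, and 0 of their 5 genes passed in edgeR, none with an unadjusted p under 0.05, and 0 passed with DESeq2. Syn1, which links vesicles to each other and to actin, had a FPKM of 63.3 to 102 with a median of 88.0 in EAE mice, and 79.7 to 92.9 with a median of 91.1 in PBS-treated mice. The EAE values spread on both sides of the narrower PBS range. Its log2FC was −0.11 (SE 0.08, adjusted p = 0.494 in edgeR). Syn2 differed least, with a FPKM of 53.8 ± 2.04 (SD, n = 8) and 52.4 ± 1.56 and a log2FC of −0.01 that turned positive under several settings. Rab3a, the main GTPase that regulates docking of vesicles, had a FPKM of 82.7 ± 10.2 in EAE mice against 86.6 ± 6.51 in PBS-treated mice (log2FC −0.12, adjusted p = 0.419 in edgeR).

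Of the 9 genes of calcium sensors and effectors with C2 domains, 5 were lower in EAE mice in edgeR, and their median log2FC was −0.19. Syt1 (chr10:108497650-109010980), the fast calcium sensor of most forebrain synapses, had a FPKM of 144, 196 and 221 as the lowest, median and highest value in EAE mice and 204, 223 and 251 in PBS-treated mice. In 6 EAE libraries the value was below the PBS range, again with EAE 5 lowest, while EAE 4 lay among the PBS libraries. The log2FC of Syt1 was −0.28 (SE 0.07, adjusted p = 0.0326 in edgeR). Syt2 (chr1:134646534-134753149), the fast sensor of many hindbrain and inhibitory synapses, was expressed at 7.75 to 10.2 FPKM in EAE mice and at 9.08 to 11.9 in PBS-treated mice. Its groups overlapped more, since 3 EAE libraries lay below the PBS range. The size of the difference was close to that of Syt1, with a log2FC of −0.29 (SE 0.07, adjusted p = 0.0293 in edgeR).

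Syt11 and Syt5 showed narrower ranges. Syt11 (chr3:88744699-88775159), which does not bind calcium and acts in vesicle recycling, had a FPKM of 107 to 137 with a median of 119.7 in EAE mice and 129 to 146 with a median of 138 in PBS-treated mice. In 7 of 8 EAE libraries it was below all PBS libraries, and EAE 4 was the exception. With a log2FC of −0.24 (SE 0.05), Syt11 had the lowest adjusted p of the 44 genes, 0.0104 in edgeR. Syt5 (chr7:4539765-4547541), a calcium sensor of vesicles and dense-core granules, had a FPKM of 30.4 to 38.3 in EAE mice and 37.2 to 42.2 in PBS-treated mice. Here 6 EAE libraries lay below the PBS range and 6 PBS libraries above the EAE range, and the log2FC was −0.19 (adjusted p = 0.0467 in edgeR).

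Doc2b (chr11:75768270-75796060), a soluble sensor linked to spontaneous and asynchronous release, was low in level and even between libraries. Its FPKM was 6.96 to 7.80 in EAE mice and 7.52 to 8.39 in PBS-treated mice, and 7 EAE libraries lay below every PBS library. The log2FC was −0.19 (SE 0.05, adjusted p = 0.0319 in edgeR). The 4 genes of this role that did not pass were Syt4, Syt7, Doc2a and Rph3a. They had a log2FC from −0.21 for Syt4 to 0.19 for Doc2a, the paralog of Doc2b, whose adjusted p was 0.289 in edgeR.

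**Figure D3:**
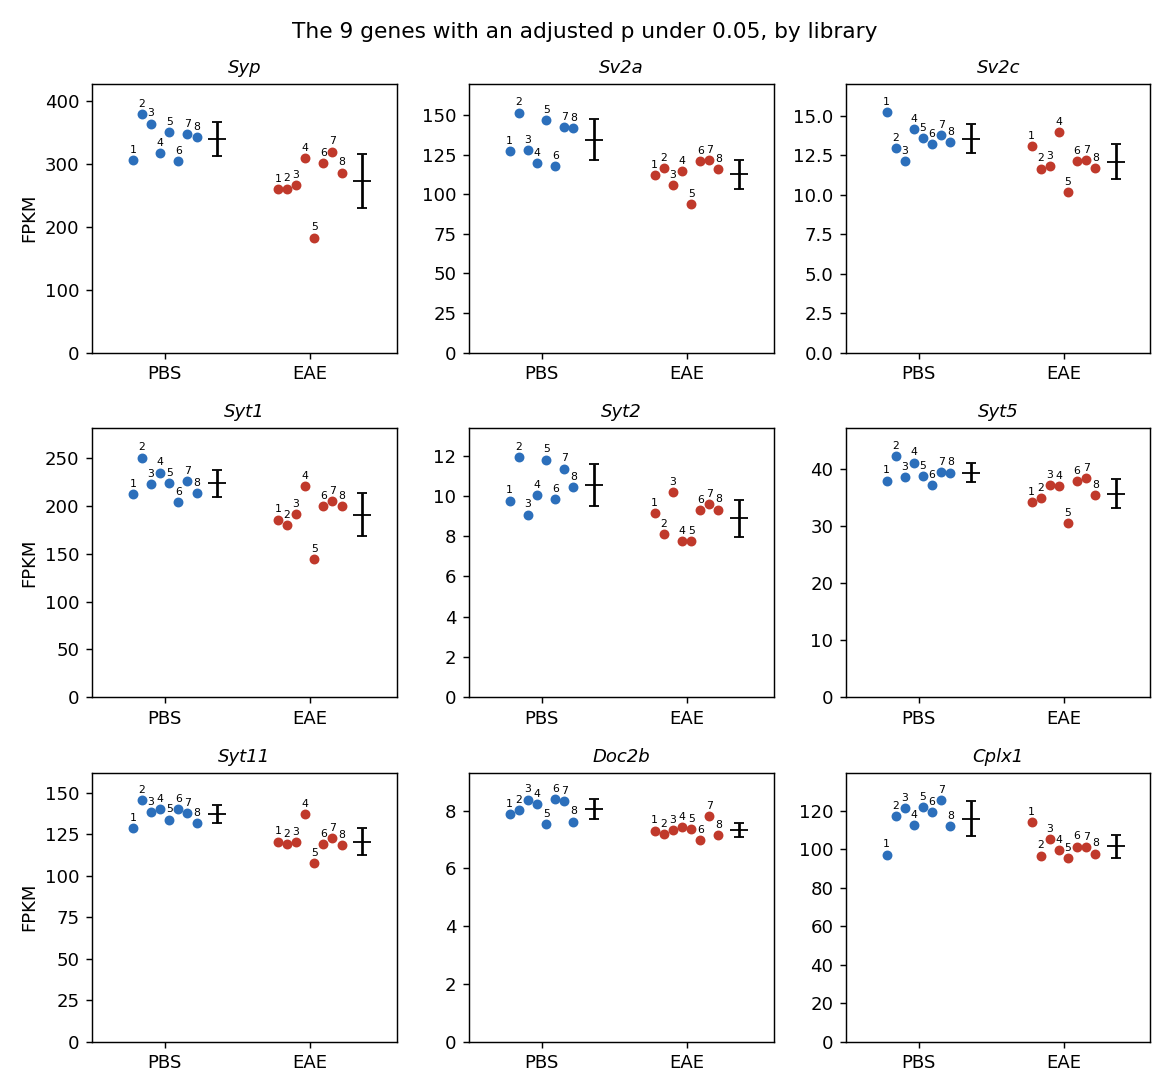
FPKM of the 9 genes with an adjusted p under 0.05 in each library, numbered by replicate, with the mean and SD of each group (n = 8) as a black bar on axes that start at 0. The groups overlap for all 9 genes; EAE 5 is the lowest of the EAE libraries for 8 of the 9 genes, and EAE 4 reaches the PBS range for Syp, Sv2c, Syt1, Syt11 and Cplx1.

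No gene of a SNARE protein passed in edgeR or DESeq2 with all 16 libraries. Of the 8 genes of SNAREs, complexins and the proteins that take SNAREs apart, only Cplx1 had an adjusted p under 0.05 in edgeR, and the median log2FC was −0.08. Cplx1, or complexin 1 (chr5:108518554-108550027), clamps the assembled SNARE complex until calcium arrives. Its FPKM was 95.4, 101 and 114 as the lowest, median and highest value in EAE mice and 97.3, 118 and 126 in PBS-treated mice. PBS 1 lay at the low end of the EAE range and EAE 1 at the high end, and 5 PBS libraries were above all EAE libraries. The log2FC was −0.24 (SE 0.05, adjusted p = 0.0185 in edgeR). Cplx2, its paralog of excitatory neurons, had a log2FC of −0.10 (adjusted p = 0.301 in edgeR), with a FPKM of 142 ± 10.1 (SD, n = 8) in EAE mice against 148 ± 8.86 in PBS-treated mice.

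Snap25, the SNARE of the presynaptic plasma membrane, had a FPKM of 171 to 234 with a median of 214 in EAE mice and 196 to 229 with a median of 212 in PBS-treated mice. The medians were nearly equal, and the EAE values enclosed the PBS range. Its log2FC was −0.07 (SE 0.05, adjusted p = 0.571 in edgeR). Vamp2, the vesicle SNARE of the forebrain, was at 197 ± 8.37 and 202 ± 11.5 FPKM (log2FC −0.09). Vamp1, the vesicle SNARE of the hindbrain and spinal cord, was at 33.8 ± 1.82 and 33.9 ± 1.84 FPKM (log2FC −0.06). For Snap25, Vamp1 and Vamp2 the difference in mean FPKM was smaller than 1 SD of either group. Stx1a, Nsf and Napb did not pass either, with a log2FC from −0.17 for Nsf to 0.07 for Stx1a.

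Of the 10 genes of the active zone and of priming, 0 passed in edgeR, their median log2FC was 0.01 and 5 of the 10 were positive. One of the 10, Unc13c, had an unadjusted p under 0.05 and, at a log2FC of −0.19, an adjusted p of 0.0503 just outside the threshold in edgeR, and it passed with DESeq2 and limma-voom. Unc13c codes for Munc13-3, a priming factor known mainly from the cerebellum. Rims1, a scaffold that recruits calcium channels, had a FPKM of 77.6 to 101 with a median of 90.8 in EAE mice and 75.8 to 97.3 with a median of 83.1 in PBS-treated mice. The ranges nearly coincided, and the log2FC was 0.03 (SE 0.06, adjusted p = 0.870 in edgeR). Bsn, the giant scaffold protein Bassoon, had the largest fitted change of this role, −0.22, but also the widest spread, with 48.4 to 79.5 FPKM in EAE mice and 56.3 to 86.0 in PBS-treated mice (SE 0.11, adjusted p = 0.309 in edgeR).

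The vesicular glutamate transporters fill vesicles with glutamate, VGLUT1 (Slc17a7) mainly in the cortex, hippocampus and cerebellum and VGLUT2 (Slc17a6) mainly in the thalamus and brainstem. Neither passed in edgeR or DESeq2, although both had an unadjusted p under 0.05 in edgeR. The FPKM of Slc17a7 was 229.6 to 300.0 with a median of 265 in EAE mice and 257 to 321 with a median of 279 in PBS-treated mice, and its log2FC was −0.16 (SE 0.06, adjusted p = 0.151 in edgeR). Slc17a6 was at 9.18 to 15.4 FPKM with a median of 10.03 in EAE mice and at 10.8 to 14.6 with a median of 11.9 in PBS-treated mice. In 7 of 8 EAE libraries it was below all PBS libraries, and EAE 4 was above all of them. The log2FC of Slc17a6 was −0.26 (SE 0.09, adjusted p = 0.131 in edgeR), and without EAE 4 it was −0.36 with an adjusted p of 0.00315, the lowest of the 16 edgeR fits that each left out 1 library (highest 0.273).

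None of the 4 endocytosis genes passed in edgeR or DESeq2, and 2 had an unadjusted p under 0.05 in edgeR. Dnm1, the neuronal dynamin that cuts vesicles from the membrane, had a FPKM of 145 to 201 in EAE mice and 176 to 214 in PBS-treated mice. Its log2FC was −0.18 (SE 0.07, adjusted p = 0.152 in edgeR). In 5 of 8 EAE libraries it lay below the PBS range. The other genes, Amph, Synj1 and Snap91, code for an adaptor of dynamin, a lipid phosphatase that uncoats vesicles and a clathrin adaptor, and their log2FC was −0.03 to −0.10.

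In all, 5 ratios were formed between paralogs, since a ratio within a library does not depend on how much neuronal RNA the library holds. On the log2 scale, Cplx2/Cplx1 was 0.48 ± 0.13 (SD, n = 8) in EAE mice against 0.35 ± 0.09 in PBS-treated mice, a difference of 0.14 (exact permutation test, two-sided, p = 0.0297, and 0.148 after adjustment over the 5 ratios). The ratio was above the PBS median in 7 of 8 EAE libraries, and EAE 5 was highest. The differences were 0.12 for Slc17a7/Slc17a6, 0.11 for Syn2/Syn1, −0.03 for Vamp2/Vamp1 and 0.01 for Syt1/Syt2 (exact permutation p = 0.273, 0.172, 0.545 and 0.911). None of the 5 passed after adjustment. Without EAE 4 the difference for Slc17a7/Slc17a6 was 0.19 (exact permutation p = 0.0367, unadjusted). Without EAE 3 that for Syn2/Syn1 was 0.15 (exact permutation p = 0.0468, unadjusted). For each ratio this was the lowest p when 1 library was left out in turn, 16 times in all. The highest exact permutation p was 0.480 for Slc17a7/Slc17a6 and 0.343 for Syn2/Syn1.

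**Figure D4:**
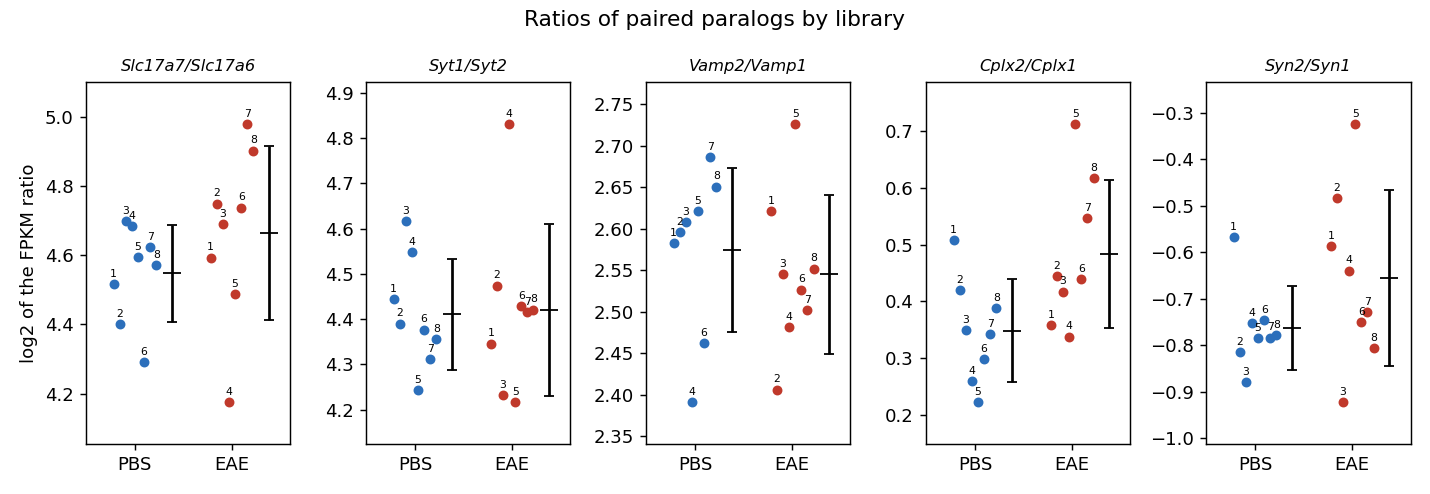
log2 of the FPKM ratio between paralogs in each library, numbered by replicate, with the mean and SD of each group (n = 8) as black bars; each panel has its own axis, which does not start at 0. EAE 4 is lowest for Slc17a7/Slc17a6 and highest for Syt1/Syt2 among all libraries, and EAE 5 is highest for Cplx2/Cplx1, Vamp2/Vamp1 and Syn2/Syn1.

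Further genes of the pathway were read from lists of the same fit. Of 45 tested genes on a list of other synaptic vesicle genes, 7 were lower and 0 higher at an adjusted p under 0.05 in edgeR (background 1.76% and 0.66%). Their median log2FC was −0.05. At an unadjusted p under 0.05 in edgeR, 12 were lower and 3 higher (background 9.52% and 7.92%), and 1 was higher with DESeq2 (background 1.66%). The 7 lower genes were Slc32a1, Synpr, Scamp1, Scamp5, Svop, Atp6v0a1 and Slc18a3. Slc32a1, the vesicular transporter for GABA and glycine, was at 33.2 to 41.2 FPKM in EAE mice and 39.7 to 56.1 in PBS-treated mice, and its log2FC was −0.47 (SE 0.07, adjusted p = 0.00233 in edgeR). Slc18a3, the acetylcholine transporter of the vesicle, was low, at 0.661 ± 0.210 and 1.18 ± 0.202 FPKM (SD, n = 8), with a log2FC of −0.88 (adjusted p = 0.0169 in edgeR). Synpr, a relative of synaptophysin, had a log2FC of −0.48 (adjusted p = 0.0163 in edgeR), and the other 4 lay between −0.28 and −0.18. Of 21 tested genes of general and blood cell secretion, such as Napa, Napg and Stxbp2, 0 passed in edgeR or DESeq2, and the median log2FC was 0.05. At an unadjusted p under 0.05, 1 was lower and 2 were higher (background 9.52% and 7.92%).

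The median log2FC of 18 neuron markers was −0.10, like that of the 44 genes. Of these markers, 3 were lower (Nefh, Thy1 and Rtn1) and 0 higher in edgeR (5 lower and 0 higher at an unadjusted p under 0.05). The background was 1.76% lower and 0.66% higher, and 9.52% and 7.92% at an unadjusted p under 0.05. The same background holds for the neutrophil, microglia, astrocyte and choroid plexus markers below. The mean log2 CPM of the neuron markers was 7.597 to 7.79 in EAE mice and 7.72 to 7.90 in PBS-treated mice. Per 100 FPKM of neuron markers, the 44 genes summed to 148.7 to 161.6 FPKM in EAE mice and to 150.4 to 165.8 in PBS-treated mice. The same ratio was 23.0 to 30.6 and 27.9 to 33.3 for vesicle membrane genes, and 19.9 to 22.2 and 18.4 to 20.9 for active zone genes. With the mean level of neuron markers as a covariate in edgeR, 0 of the 44 genes passed, and of all mRNAs tested 3 were lower and 0 higher in that fit (0.0168% and 0%). At an unadjusted p under 0.05, 7 of the 44 were lower and 2 higher, against a background of 5.47% lower and 5.37% higher. The log2FC of Syp was then −0.18 and that of Sv2a −0.25. Of 12 neutrophil markers, 4 were higher in edgeR and 8 did not pass, and their summed FPKM was 24.2 to 66.2 in EAE mice against 9.91 to 25.4. Of 19 microglia markers 2, Trem2 and Itgam, were higher. Of 12 astrocyte markers, 2 were lower (Slc4a4 and Fgfr3) and 1, Gfap, was higher with a log2FC of 0.50 (adjusted p = 0.0312 in edgeR), 8 were lower at an unadjusted p under 0.05, and the median log2FC was −0.22. The summed FPKM of 7 choroid plexus markers was 77.0 to 133 in EAE mice and 100.3 to 239 in PBS-treated mice, and 1 of them, Ttr, was lower with a log2FC of −0.88 (adjusted p = 0.0163 in edgeR). The part of these cell types in the results, neurons included, was not tested. The fit with the neuron covariate cannot test it, since the covariate came from the same libraries and its range was shifted between the groups.

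The count of genes that passed depended on single libraries and on the scaling. With 1 library left out in turn, 3 genes were lower without EAE 2, EAE 8, PBS 2 or PBS 7 (background 0.8%, 0.738%, 0.576% and 0.906% lower). There were 4 without EAE 1, EAE 3, PBS 3 or PBS 5 (background 0.911%, 0.895%, 0.956% and 0.844% lower), and 13 without EAE 4 (with 1 higher, Doc2a), where 4.53% of all mRNAs were lower and 2.8% higher. Sv2a, Syt11 and Cplx1 kept an adjusted p under 0.05 in all 16 of these edgeR fits, with at most 0.0401, 0.0283 and 0.0475. Syp and Syt1 did so in 8 of 16, Doc2b in 8, Syt2 in 11, Syt5 in 4 and Sv2c in 3. All 9 kept a negative log2FC in all 16. Scaling by library total alone left Sv2a and Syt11, against a background of 0.576% lower and 1.26% higher, and upper quartile scaling left 5 genes (background 1.05% lower and 0.732% higher). DESeq2 called all 9 genes and, in addition, Syngr3 and Unc13c (background 3.37% lower and 1.66% higher). Within EAE 6, 7 and 8 and PBS 5, 7 and 8, 14 of the 44 genes were lower and 7 were higher, against 12.6% and 10.6% of all mRNAs, and within the remaining 5 and 5 libraries 0 passed in edgeR (background 0.0335% lower and 0.0559% higher). At an unadjusted p under 0.05, 19 were lower and 0 higher in these 5 and 5 libraries, against a background of 6.64% lower and 4.15% higher. The 6 libraries had been set apart by how little those of the same group differ from each other. The spread used by the test was therefore small by that choice, and the calls within them are given as counts. Vamp2, Nsf and Napb were among the 14 lower genes there, and Rims1, Rims2 and Pclo among the 7 higher ones.

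**Figure D5:**
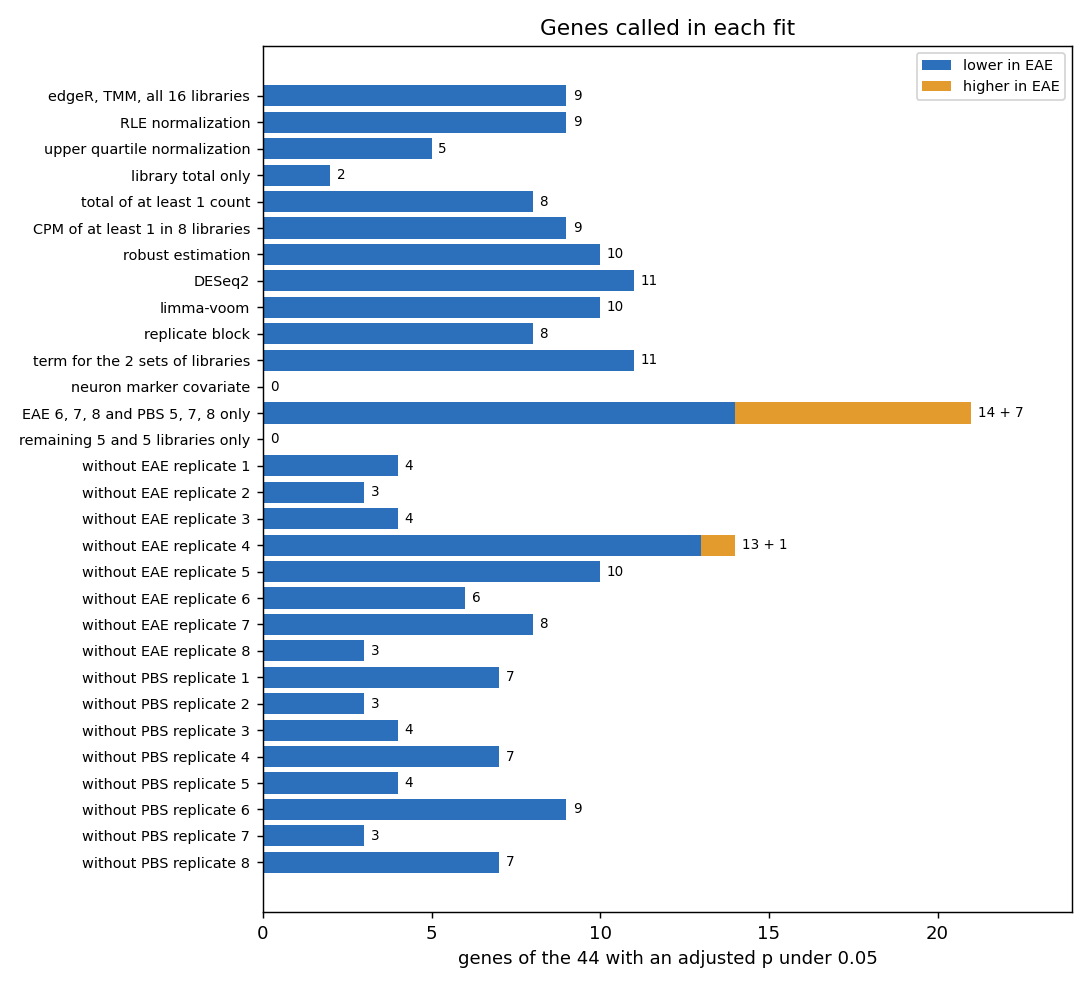
Number of the 44 genes with an adjusted p under 0.05 in each fit, lower in EAE mice in blue and higher in orange; the term for the 2 sets of libraries separates EAE 6, 7, 8 and PBS 5, 7, 8 from the rest. The number of lower genes is 9 in the edgeR fit of the report, 0 with neuron markers as a covariate, and 3 to 13 when 1 library is left out.

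On FPKM, the exact permutation test gave an unadjusted p under 0.05 for 16 of the 44 genes, of which 12 were lower and 4 were higher in EAE mice, against a background of 4.44% of the mRNAs tested that were lower and 14% that were higher on this scale. The 9 genes that passed in edgeR were among the 12. The 4 higher genes, named after their values were seen, were Stx1a, Rims2, Doc2a and Rab3c, with a log2FC of 0.07, 0.06, 0.19 and 0.08 in edgeR, where none of them passed. Of the 44 genes, 13 overlap another protein-coding gene in the GENCODE M21 annotation, among them Sv2c, Syt1 and Syt2 of the 9 genes. Syt1 overlaps Gm5136 on the same strand, and Syt2 overlaps Ppp1r12b on the opposite strand. Sv2c overlaps Gm20075 on the same strand and Gm17190 on the opposite strand. The strand setting of the counting is not given in the sources used here. How far reads of such pairs were mixed was not tested.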

How the data were processed

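The authors removed ribosomal RNA, sequenced stranded libraries, aligned the filtered reads to GRCm38 (HISAT2 2.1.0 and HTSeq 0.11.2 per the labels) and deposited tables of raw counts and FPKM for 21878 mRNAs. The deposited FPKM equals the count divided by library total and gene length. Counts were tested with edgeR 4.0.16 (R 4.3.3, TMM, quasi-likelihood, group only, two-sided) on mRNAs whose counts summed to at least 16, and p-values were adjusted over all of them. DESeq2 1.42.0 and limma 3.58.1 were alternatives, beside other scalings, filters, a replicate block, covariates and leaving out each library. On counts simulated for EAE against PBS with 200 changed genes, edgeR called 36% of them at a log2 change of 0.3 (17753 mRNAs) and 100% at 1.5 (17766 mRNAs). Of the genes called, 7.69% at 0.3 and 5.21% at 1.5 were not among the changed ones. FPKM was tested with exact permutation over 12870 divisions into 8 and 8, as were log2 ratios (smallest possible p 0.000155). The genes named were those with an adjusted p under 0.05, the most abundant and the most changed of each role, and those of the ratios, with exceptions said. The genes, lists and tests were chosen with earlier results of these data known. Replicates are 1 library per mouse. Gene positions are from RefSeq, overlaps between genes are from GENCODE M21, and 0 sample columns were left unused.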

Additional observations from a re-analysis of the deposited data

Results flagged for a closer look

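In 98 groups of 8 values, 11 single values lay far from the rest by Dixon's criterion, which chance meets in about 1 group in 20. Of these, 4 were low values of EAE 5: Syp at 183 FPKM (next lowest EAE library 260.4), Syn3 at 4.81, Pclo at 34.2 and Cadps at 57.7 (next 68.5). EAE 5 also held the highest EAE value of Rph3a, 72.1 FPKM. EAE 4 held 3 high values, Syngr3 at 53.3 FPKM, Syt4 at 45.4 and Slc17a6 at 15.4, and the highest log2 ratio of Syt1 to Syt2, 4.83. In PBS-treated mice, Pclo was high in PBS 4, at 47.2 FPKM, and the log2 ratio of Syn2 to Syn1 was high in PBS 1, at −0.57. EAE 5 also had the highest total counts of the EAE group, 30244215.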

How the results depend on the processing

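Of the 9 lower genes, 5 remained with upper quartile scaling, 2 with library totals only and 0 with neuron markers as a covariate. With EAE 6, 7 and 8 and PBS 5, 7 and 8 only, 14 were lower and 7 higher, and with the remaining libraries 0 were lower. Leaving out 1 library gave 3 to 13 lower and 0 to 1 higher. The other settings (RLE, both other filters, robust estimation, DESeq2, limma-voom and the term for library sets) gave 8 to 11 lower. The share of all mRNAs that were lower was 3.37% with DESeq2. It is not given here for the rest of these settings, so that their counts stand without a background. With the replicate number as a block, 8 of the 44 genes were lower (2.05% of all mRNAs), Doc2b and Syt5 no longer passed and Syngr3 passed. Numbers did not pair the samples 1 to 1, since the correlation of same-numbered libraries was −0.094 to 0.34 and 2 of 8 EAE libraries correlated best with their own number. In both groups, however, libraries 1 to 4 had fewer mRNAs detected than libraries 5 to 8, a split that the block also takes up. Log2FC turned positive with neuron markers as a covariate for Syn1 (0.049), Syn2 (0.0085), Rab3a (0.089), Snap25 (0.051) and Vamp1 (0.030). That of Syn2 was also positive with upper quartile scaling (0.0069), library totals (0.038) and those 6 libraries (0.012). With 1 library left out it was −0.025 to 0.00048, positive only without EAE 5. Bsn (0.054) and Slc17a7 (0.043) turned positive in the same 6 libraries and Rims1 negative (−0.054) in the rest. For these the cause was not tested. When 1 library was left out, the ratio difference was 0.071 to 0.19 for Slc17a7/Slc17a6, −0.049 to 0.039 for Syt1/Syt2, 0.10 to 0.16 for Cplx2/Cplx1 (exact permutation p 0.0109 to 0.0598) and 0.061 to 0.15 for Syn2/Syn1. A pseudocount of 0.1 left all 5 ratios on the same side of the threshold, and log2(FPKM + 1) in the exact permutation test passed 10 of 21 named genes. Counts were at least 262 per gene, and how far counting noise limits the values of single genes was not tested.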

Other observations

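The genes were also grouped by how the protein meets the membrane, a split made after the values were seen and not tested. The 14 of the 44 genes whose proteins span the membrane and are not tail-anchored had a median log2FC of −0.225. Of these 14 genes, 7 passed in edgeR. The 27 genes without a membrane span had a median of −0.06, with 2 that passed, Doc2b and Cplx1, and the 3 tail-anchored SNARE genes had a median of −0.06 with 0 that passed. Among the other synaptic vesicle genes, all 7 that were lower are of the first kind, of 15 such genes with a median of −0.21, beside a median of −0.01 over 28 genes without a membrane span. When 1 library was left out, the median of the 14 genes was −0.26 to −0.20 and that of the 27 genes −0.07 to −0.04. It was −0.15 for the 14 genes in EAE 6, 7 and 8 with PBS 5, 7 and 8, and −0.285 in the remaining libraries, and −0.17 with library totals and −0.09 with neuron markers as a covariate in all 16.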
